A study of Mus musculus with 24 samples.

Results

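Ubiquitin-specific proteases (USPs) form the largest family of enzymes that remove ubiquitin from proteins. All protein-coding mouse genes whose symbol is Usp followed by a number were taken, which gave 56 of the 21887 protein-coding genes on chromosomes 1 to 19, X and Y. They include 5 copies of the Usp17l (Dub) group and Usp6nl, which carries the symbol but encodes a GTPase-activating protein for Rab proteins rather than a protease. The 5 Usp17l copies are near-identical in sequence, so reads from one can be assigned to another and their values are uncertain one by one.

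The RNA modification N6-methyladenosine (m6A), in which adenosine carries a methyl group, was mapped by picoMeRIP-seq, in which RNA from a small pool of cells is sheared, bound by an m6A antibody and sequenced beside its unbound input. All samples were C57BL/6N, with no mutation or test compound named in the labels. Females were 8 weeks old and were superovulated with gonadotropins, and each of the 6 stages had 2 libraries, described as biological replicates, each with its own list of peaks. Germinal vesicle (GV) oocytes with a surrounded nucleolus were taken 48 h after the first hormone, 49 per library, and were kept from resuming meiosis with IBMX. Oocytes at metaphase II (MII) came 14 h after chorionic gonadotropin (hCG), in pools of 100 and 110. Embryos came from matings with 8-week-old males: zygotes at 27 to 28 h after hCG, 2-cell embryos at 39 to 43 h, 8-cell embryos at 68 to 70 h and blastocysts at 92 to 94 h, with 100 embryos per library except for 51 in 8-cell replicate 2. The first 3 stages, up to the zygote, live largely on RNA stored in the oocyte and are called the maternal phase (6 libraries); the 3 later ones are called the embryonic phase (6 libraries).

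Ubiquitin is attached to proteins by a cascade of E1, E2 and E3 enzymes, and deubiquitinases such as the USPs cut it off again. This can spare a protein from the proteasome, change the state of chromatin by clearing histones, or redirect receptors in the endosome. Oocytes and early embryos replace much of their stored RNA and protein as the embryonic genome becomes active, and m6A on a transcript is known to bear on its stability and translation.

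The shortest peak list, of zygote replicate 1, held 6914 peaks, and the longest, of GV oocyte replicate 2, held 11959. "Marked" means that at least 1 bp of a peak lies over the gene body. Without read counts, the lack of a peak can reflect no methylation, low expression or a depth too low to detect it. In these pools, fewer cells with a transcript and less of it per cell cannot be told apart. The maternal libraries each had 4 of 12 oocyte marker genes marked, and the embryonic ones 0 to 2. Zp1, Zp2, Zp3, Zar1, Figla and Ddx4, which define oocytes, had no peak in any library, so marking is not a measure of expression. Of 14 cumulus and granulosa markers, 4 were marked somewhere: 0 to 3 per maternal library (median 2.5) and 0 in each embryonic library. Cyp11a1 was one that passed the test described below in the maternal direction, while Amh, Foxl2, Fshr and Lhcgr had no peak. Cumulus cells had been removed before collection, and the part of any that remained in the maternal results was not tested.

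USP genes were marked often and at every stage. A peak lay over 50 of the 56 genes (89.3%) in at least 1 library, against 45.2% of all protein-coding genes, and 11 (19.6%) were marked in all 12 libraries, against 3.78%. The 2 GV oocyte libraries marked 31 and 32 USP genes, the MII oocyte libraries 28 and 27, and the zygote libraries 20 and 28. The 2-cell libraries marked 32 and 31, the 8-cell libraries 28 and 31, and the blastocyst libraries 30 and 25. Zygote replicate 1, which has the shortest peak list, stood lowest, and the phases overlapped otherwise. The maternal share was 49.4% ± 7.55 (SD, n = 6 libraries) and the embryonic share 52.7% ± 4.62 (n = 6), so the phases differed by less than the spread between libraries. All protein-coding genes gave 19.6% ± 3.57 and 20.6% ± 2.61.

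**Figure D1:**
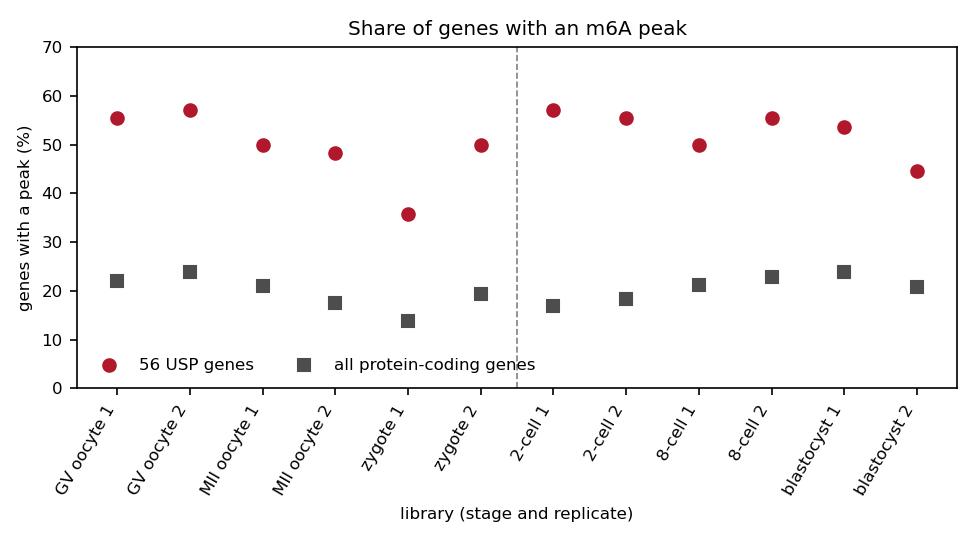
Share of genes with at least 1 m6A peak (vertical axis, percent) in each of the 12 libraries (horizontal axis), for the 56 USP genes (red circles) and all 21887 protein-coding genes (grey squares). The USP share lies between 35.7% in zygote replicate 1 and 57.1% in GV oocyte replicate 2 and 2-cell replicate 1, above the share over all genes in each library.

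USP genes are long, and a long gene body has more room for a peak. Their median length is 48000 bp, against 17169 bp for all protein-coding genes. Among genes under 10000 bp the mean share marked per library was 26.0% for 8 USP genes and 10.1% for all, and the USP share was the higher one in 10 of 12 libraries. These 8 genes include all the Usp17l copies, which can share reads and are not independent counts. Their share ran from 0% to 75% over the libraries. From 10000 to under 30000 bp the shares were 37.5% and 20.1%, and from 30000 to under 60000 bp they were 57.1% and 27.2%. From 60000 to under 100000 bp they were 61.8% and 32.2%, and at 100000 bp or more 65.8% and 34.5%. The USP share was thus above that of genes of like length in 10 to 12 of the 12 libraries of each class. No test was made over the list, and expression, which also moves with detection of a peak, was not measured here.

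**Figure D2:**
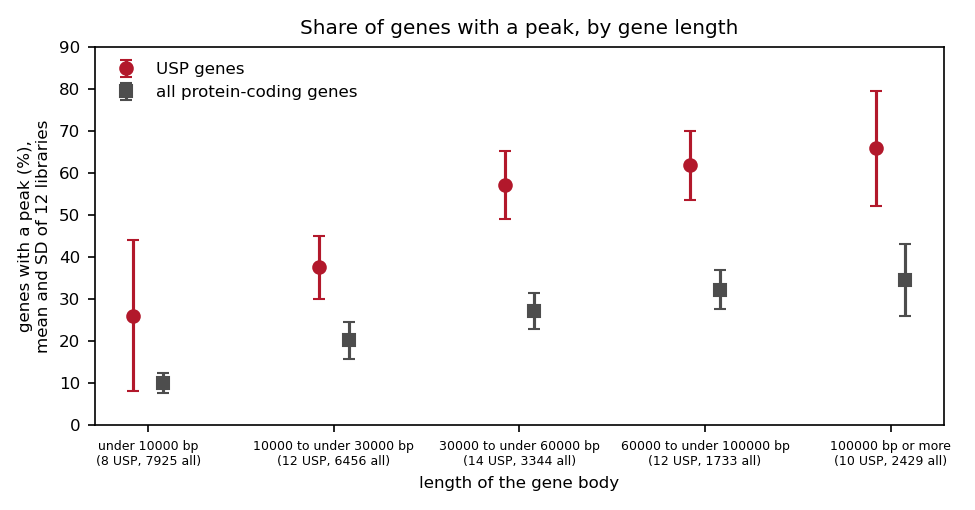
Mean share of genes marked per library (vertical axis, percent; bars are the SD over 12 libraries) in 5 classes of gene length (horizontal axis), for USP genes (red circles) and all protein-coding genes (grey squares). Both rise with length, from 26.0% and 10.1% under 10000 bp to 65.8% and 34.5% at 100000 bp or more.

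To find USP genes marked in one phase and not the other, the number of marked libraries was compared by Fisher's exact test (two-sided, 6 libraries against 6, smallest p = 0.00216) for every protein-coding gene, with Benjamini-Hochberg adjustment over the 2310 genes marked in 5 to 7 libraries. The 2 libraries of a stage share that stage, so these p-values describe the 12 libraries, and 3 stages against 3 could not go below p = 0.1 in an exact test. Usp2, Usp30 and Usp51 were called maternal and Usp48 embryonic, 3 and 1 of the 9 USP genes that could be tested. Over all genes tested, 28% were called maternal and 21.6% embryonic, so the USP counts are near the background. The 50 USP genes marked at least once were also counted without a test. Of these, 13 were marked in more maternal libraries, 13 in equal numbers and 24 in more embryonic libraries, with a median difference of 0. Over the 9903 genes marked at least once, 3651 were marked in more maternal libraries, 1363 in equal numbers and 4889 in more embryonic ones, and the median was also 0.

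**Figure D3:**
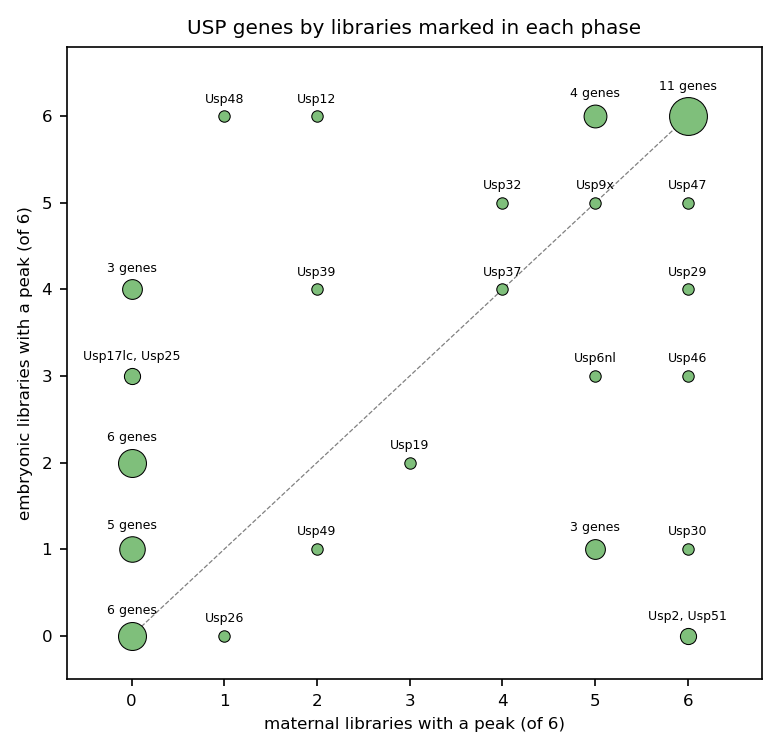
Each circle places USP genes by the number of maternal (horizontal axis, of 6) and embryonic (vertical axis, of 6) libraries in which they were marked; circle area grows with the number of genes, and the dashed line marks equal numbers. 11 genes sit at 6 and 6, 6 genes at 0 and 0, Usp2 and Usp51 at 6 and 0, Usp30 at 6 and 1, and Usp48 at 1 and 6.

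The USPs that act on histones included 2 of the 4 called genes. Of these USPs 4 were tested, with 1 called maternal and 1 embryonic. Over all genes tested 28% and 21.6% were, so this is near the background. All 11 histone USPs were marked somewhere, 4 to 6 of them per maternal library and 3 to 6 per embryonic library. Usp51, an enzyme that removes ubiquitin from histone H2A and can use the ENY2 and ATXN7L3 proteins of the SAGA coactivator's deubiquitinase module, was marked in all 6 maternal and 0 embryonic libraries (Fisher's exact p = 0.00216, Benjamini-Hochberg adjusted p = 0.00963). For each gene and library, the best peak is the one with the best q-value. Fold enrichments given for a gene are those of its best peaks, which can lie in different regions between libraries. The best Usp51 peak had a fold enrichment over input, the authors' own value for a peak within its list, of 7.44 and 10.04 in GV oocytes, 17.8 and 14.8 in MII oocytes, and 7.52 and 16.1 in zygotes. The values were highest in MII oocytes and zygote replicate 2, and no peak was listed from the 2-cell stage on.

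Usp27x and Usp22 are the other USPs that work with ENY2 and ATXN7L3. Usp27x was marked in 5 maternal libraries, with fold enrichments of 12.1 and 10.5 in GV oocytes, 7.95 and 6.27 in MII oocytes and 5.45 in zygote replicate 2, and in 2-cell replicate 1 at 6.11. It did not pass the test (Fisher's exact p = 0.0801, Benjamini-Hochberg adjusted p = 0.143). Usp22, the SAGA subunit itself, was marked in 8-cell replicate 1 (4.66) and blastocyst replicate 1 (3.56). The genes of their 2 partners were called in opposite directions: Eny2 had peaks in all 6 maternal libraries and 0 embryonic ones, and Atxn7l3 in 0 and 6 (Fisher's exact test, Benjamini-Hochberg adjusted p = 0.00963 each). Atxn7, the SAGA anchor of the module, was marked in all 12 libraries.

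In zygote replicate 2 a peak lay just upstream of Usp27x, 17 bp from the annotated start, at 4.02-fold enrichment. Its whole 201 bases fall in the window before the start of the gene (chrX:7375847-7376047, minus strand, RefSeq GRCm38.p6). The sequence is printed because the whole peak lies in this window, outside the annotated gene. Capitals mark GGAC, a frequent core of the m6A consensus, which occurs 2 times, and GTCC, its reverse complement, which occurs 3 times, 1 of them directly before a GGAC.
Usp27x upstream peak: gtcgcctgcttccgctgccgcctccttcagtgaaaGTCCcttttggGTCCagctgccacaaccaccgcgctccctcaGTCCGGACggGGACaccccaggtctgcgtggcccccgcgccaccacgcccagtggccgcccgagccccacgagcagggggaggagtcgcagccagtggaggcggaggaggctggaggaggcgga
GGAC is common in such sequence: 58.0% of 32851 windows of 250 bases before RefSeq starts hold it on the gene's strand and 82.3% on either strand. Peaks touched 3 USP windows in all, and the 55 bases touched in a Usp19 window (zygote replicate 2) held 0 GGAC and 0 GTCC. A match is a description of the letters and does not show a methylated site.

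Usp48, a nuclear USP that acts on histone H2A, was the gene called embryonic (1 maternal and 6 embryonic libraries; Fisher's exact p = 0.0152, Benjamini-Hochberg adjusted p = 0.0306). Its maternal mark was in GV oocyte replicate 2, at 3.16-fold enrichment. Its embryonic fold enrichments were 4.15 and 2.35 in 2-cell embryos, 7.77 and 3.15 in 8-cell embryos, and 5.98 and 7.16 in blastocysts. The single maternal fold enrichment lies within the embryonic range. Its peak ranked at the 16.7th percentile by q-value, against 20.0 to 94.2 in the embryonic libraries. The call was lost with peaks of at least 10 in −log10 q-value, with only the stronger peaks of each library (fold at or above its median), with peaks near gene ends (within 2000 bp), and with adjustment over all marked genes (Fisher's exact test, Benjamini-Hochberg adjusted p = 0.131).

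Usp16 and Usp42, 2 further USPs of ubiquitinated histones, were marked in every library. The fold enrichment of the best Usp16 peak ran from 5.90 to 7.72 in the maternal libraries (median 7.10) and from 5.00 to 19.8 in the embryonic ones (median 10.1). For Usp42 the range was 6.63 to 16.9 (median 8.64) and 5.21 to 16.3 (median 10.4). Both genes' ranges overlap between phases. Over all marked genes, the median best-peak fold of a library was itself higher in the embryonic phase (6.07 to 7.30) than in the maternal phase (4.96 to 5.74). No fold comparison between phases given here is corrected for this. Usp7, a stabiliser of the p53 regulator MDM2, was marked in 5 maternal libraries and 2-cell replicate 1, with fold enrichments of 2.12 to 3.66, and did not pass the test (Fisher's exact p = 0.0801, Benjamini-Hochberg adjusted p = 0.143). Its peak spans the 5′ end of the gene.

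The remaining histone USPs were marked in few libraries. Usp49, which clears ubiquitin from histone H2B, was marked in both GV oocyte libraries (5.10 and 4.72) and in 2-cell replicate 2 (5.94). All of its peaks also touch the overlapping gene Gm20517, and with such shared peaks left out Usp49 had no mark and 7 USP genes were marked in no library. Usp44, a histone H2B enzyme that also acts in the mitotic checkpoint, was marked in both 2-cell libraries (6.11 and 6.21) and in no other. Usp21 had 1 peak, in blastocyst replicate 1 (4.11), and Usp3 had 1, in 8-cell replicate 2 (4.12). These single peaks ranked low in their libraries, at the 15.8th and 5.34th percentile by q-value.

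**Figure D4:**
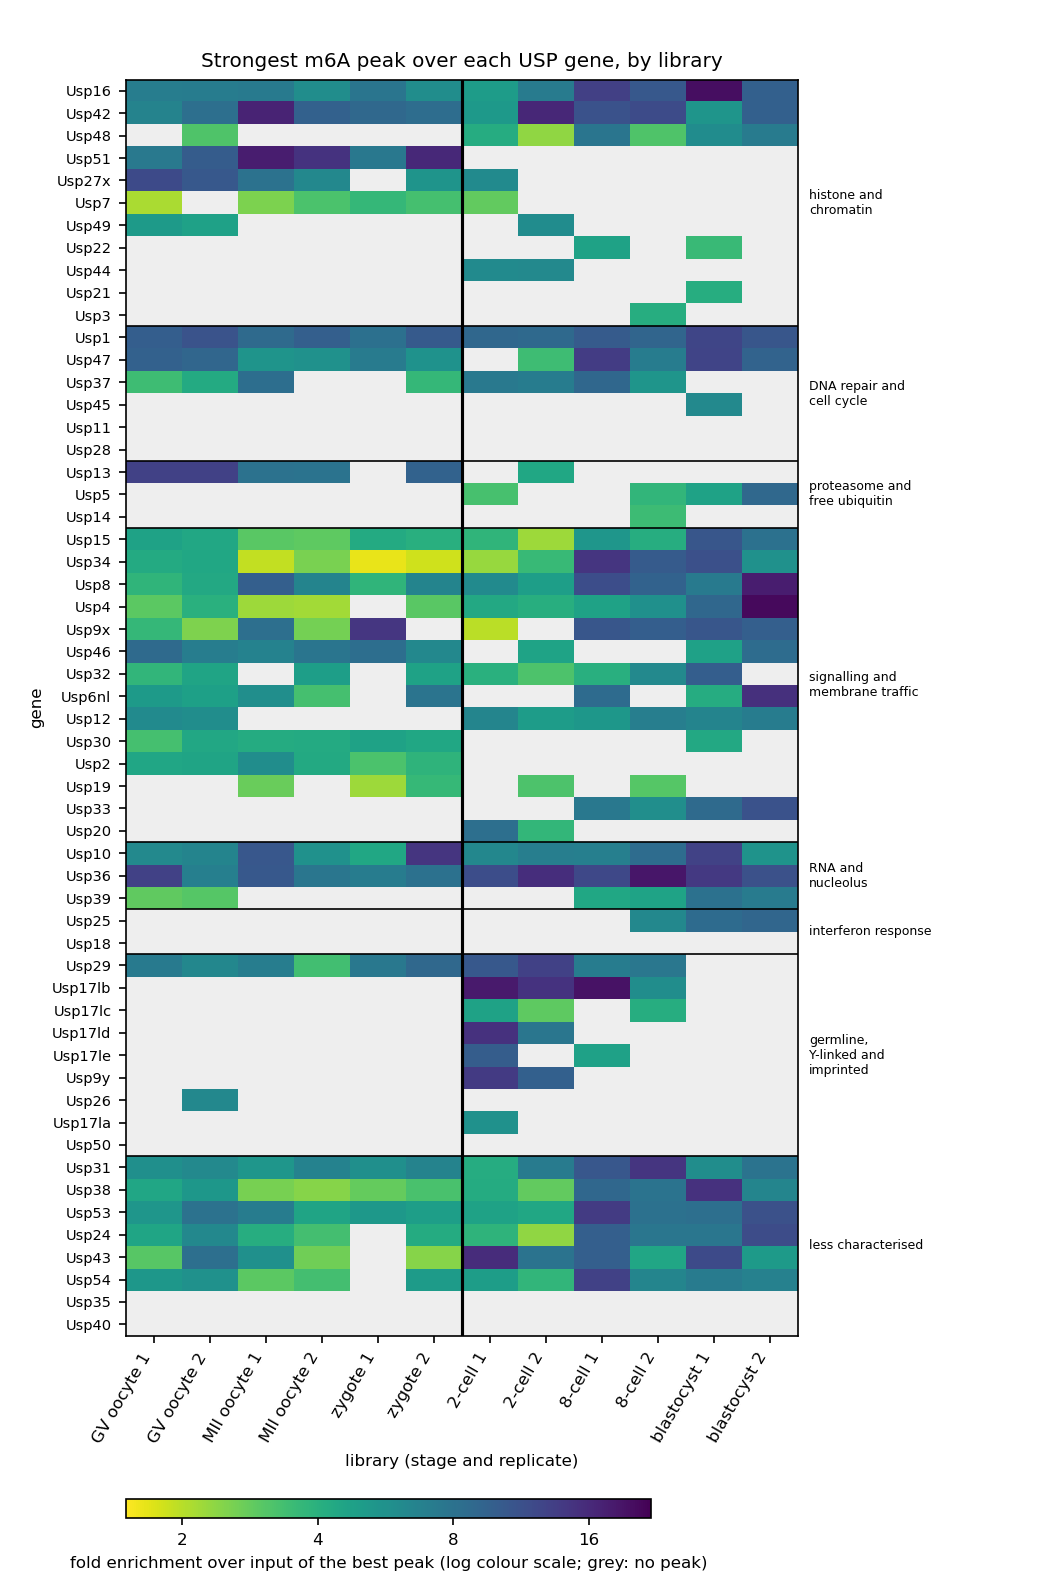
Fold enrichment over input of the best peak (colour, log scale; grey means no peak) for each USP gene (rows, grouped by role) in each library (columns; the vertical line divides the maternal from the embryonic phase). Usp51 and Usp2 are coloured in the 6 maternal columns and grey in the 6 embryonic ones, and Usp17ld, Usp20, Usp44 and Usp9y are coloured in the 2-cell columns alone.

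Among USPs of DNA repair and the cell cycle, 2 genes were marked nearly throughout and 2 had no peak. Usp1, which acts on FANCD2 and PCNA, was marked in all 12 libraries with little spread: its fold enrichment ran from 8.20 to 11.1 in the maternal (median 9.83) and from 8.80 to 12.5 in the embryonic libraries (median 9.65). The Usp1 peak near the gene's end reached the 99.8th percentile of its library by q-value in 2-cell replicate 1. Wdr48, the gene of the cofactor that activates USP1, USP12 and USP46, was marked in 11 libraries, and Wdr20, a further partner of the latter pair, in all 12. Usp47, a regulator of DNA polymerase beta, was marked in 11 libraries, missing in 2-cell replicate 1, with best peaks at 3.47- to 13.6-fold.

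Usp37, which stabilises cyclin A, was marked in 4 maternal and 4 embryonic libraries. Its fold enrichments were 3.45 and 4.25 in GV oocytes, 8.32 in MII oocyte replicate 1 and 3.66 in zygote replicate 2. In 2-cell embryos they were 7.42 and 7.10, in 8-cell embryos 9.01 and 5.43, and neither blastocyst library had a peak. The peaks lay in 4 different regions, and 2 of them also lie in the neighbouring gene Cnot9, which the table places over the same stretch. Those 2 held the zygote and 2-cell marks and 1 of the 2 peaks of MII oocyte replicate 1. One of these regions touches the window of an internal Usp37 start with 28 bases (chr1:74506044-74506071, minus strand, RefSeq GRCm38.p6), shown because the MII oocyte and zygote peaks reach it, with GGAC in capitals. These 28 bases are the outer edge of the window, upstream of the internal start, and do not hold the start itself.
Usp37 internal start: aGGACacgaattgcgcatgctcaagcgg
Usp45, which acts on a DNA repair nuclease, had 1 peak, in blastocyst replicate 1 (6.23). Usp11 and Usp28, both tied to the response to DNA breaks, had none.

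Of the USPs that handle free ubiquitin and the proteasome, Usp13 and Usp5, a pair of related genes, were marked in different libraries. Usp13 was marked in 5 maternal libraries, at 13.1 and 13.1 in GV oocytes, 8.00 and 7.89 in MII oocytes and 9.49 in zygote replicate 2, and in 2-cell replicate 2 at 4.45. The 2-cell value lies below all the maternal ones, and the gene did not pass the test (Fisher's exact p = 0.0801, Benjamini-Hochberg adjusted p = 0.143). Usp5, which takes apart unanchored ubiquitin chains, was marked in 0 maternal libraries and in 4 embryonic ones, at 3.29 in 2-cell replicate 1, 3.74 in 8-cell replicate 2, and 4.69 and 8.83 in blastocysts. Marked in 4 libraries, it was outside the tested range (Fisher's exact p = 0.0606, unadjusted). Usp14, which sits on the proteasome, was marked in 8-cell replicate 2 alone (3.49), and its best peak there also touches the neighbouring gene Thoc1.

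Of the 14 genes grouped under signalling and membrane traffic, all were marked somewhere, 8 to 11 of them per library in both phases. Usp2, a USP of cyclin D1 and of the circadian clock, was marked in all 6 maternal libraries and 0 embryonic ones (Fisher's exact p = 0.00216, Benjamini-Hochberg adjusted p = 0.00963). Its fold enrichments were 4.47 and 4.60 in GV oocytes, 5.88 and 4.32 in MII oocytes, and 3.204 and 3.84 in zygotes. The maternal values are close to each other, lowest in zygotes. With only the stronger peaks of each library (fold at or above its median), the Usp2 call was lost.

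Usp30, the USP of the mitochondrial outer membrane that counters Parkin, was marked in all 6 maternal libraries and in blastocyst replicate 1 (Fisher's exact p = 0.0152, Benjamini-Hochberg adjusted p = 0.0306). Its fold enrichments were 3.32 and 4.42 in GV oocytes, 4.20 and 4.25 in MII oocytes, 4.69 and 4.46 in zygotes, and 4.33 in the blastocyst library. The blastocyst peak lies within the maternal range. The call was lost with only those stronger peaks and with adjustment over all marked genes (Fisher's exact test, Benjamini-Hochberg adjusted p = 0.131).

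Usp15, Usp34 and Usp8 were marked in every library. Usp34, a very large enzyme of Wnt signalling, had fold enrichments of 1.64 to 4.45 in the maternal (median 2.25) and 2.27 to 14.5 in the embryonic libraries (median 7.92). Its 8-cell and blastocyst values, 5.64 to 14.5, lie above all of its values before, a description for which no test was made. The median over all marked genes was also higher in each embryonic library (6.07 to 7.30, against 4.96 to 5.74 in the maternal ones). Usp15, which acts on SMAD signalling, ran from 2.93 to 4.69 (median 4.15) and from 2.23 to 10.8 (median 4.74). Usp8, the endosomal enzyme that decides on receptor recycling, ran from 3.78 to 9.79 (median 5.44) and from 4.88 to 17.7 (median 8.38). The Usp15 and Usp8 ranges overlap between phases.

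Usp4 was missing in zygote replicate 1 alone, as were Usp24, Usp43 and Usp54. Usp9x, an X-linked enzyme with many substrates, was marked in 10 libraries and missing in zygote replicate 2 and 2-cell replicate 2. Usp32 was marked in 9 and Usp6nl in 8, with no strong tilt to either phase (4 and 5 for Usp32, 5 and 3 for Usp6nl). Usp12 and Usp46, close relatives that share their WD-repeat partners, had different stage patterns. Usp12 was marked in both GV oocyte libraries (6.10 and 5.92), in 0 of the MII oocyte and zygote libraries, and in all 6 embryonic libraries at 4.96 to 7.09. Usp46 was marked in all 6 maternal libraries at 6.31 to 8.72 and in 3 embryonic ones, 2-cell replicate 2 (4.61) and both blastocysts (4.71 and 8.49). Neither was in the tested range of 5 to 7 libraries (Fisher's exact p = 0.0606 and 0.182, unadjusted).

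Usp33 and Usp20, related enzymes of receptor trafficking, were marked in different embryonic stages. Usp33 was marked in both 8-cell (7.51 and 5.85) and both blastocyst libraries (8.67 and 11.2). Usp20 was marked in both 2-cell libraries (8.29 and 3.71), but the 2 libraries shared no region. The replicate 2 peak ranked at the 2.09th percentile by q-value. It and the best peak of replicate 1 also overlap the noncoding gene Gm39786. Usp19, which has a form anchored in the endoplasmic reticulum, was marked in 3 maternal and 2 embryonic libraries at 2.22 to 3.66 and did not pass the test (Fisher's exact p = 1).

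Of the genes with roles in RNA biology, Usp36 and Usp10 were marked in every library. Usp36, the main nucleolar USP, ran from 6.89 to 13.1 in the maternal (median 7.89) and from 11.3 to 18.6 in the embryonic libraries (median 13.2), and the ranges overlap by GV oocyte replicate 1. Usp10, which acts in stress granule assembly with G3BP1, ran from 4.43 to 14.6 (median 6.38) and from 5.55 to 13.0 (median 6.94). G3bp1 itself was called embryonic, with a mark in 0 maternal and 5 embryonic libraries (Fisher's exact test, Benjamini-Hochberg adjusted p = 0.0306). Usp39, a spliceosome subunit without catalytic residues, was marked in both GV oocyte libraries (2.88 and 3.04), then in no library until both 8-cell (4.46 and 4.65) and both blastocyst libraries (8.07 and 7.19). It did not pass the test (Fisher's exact test, Benjamini-Hochberg adjusted p = 0.698).

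Usp18, which removes the ubiquitin-like protein ISG15 in the interferon response, had no peak. Usp25 was marked in 8-cell replicate 2 (6.29) and both blastocyst libraries (8.57 and 9.03).

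The germline, Y-linked and imprinted genes were marked mostly at the 2-cell stage: 1 to 2 of 9 per maternal library, and 0 to 7 per embryonic library, with 5 marked in both 2-cell libraries. Usp17l copies among these can share reads and are not independent counts. Usp17lb was marked in both 2-cell libraries (18.0 and 14.8) and both 8-cell libraries (19.4 and 5.88). Usp17ld was marked in the 2-cell libraries (15.0 and 7.69), and Usp17lc in the 2-cell libraries (4.69 and 2.91) and 8-cell replicate 2 (4.12). Usp17le was marked in 2-cell replicate 1 (9.95) and 8-cell replicate 1 (4.71), and Usp17la in 2-cell replicate 1 (5.67). No Usp17l copy was marked in any of the 6 maternal or the 2 blastocyst libraries. Within 5000 bp outside the gene bodies, 4 further 2-cell peaks lay near Usp17la, Usp17lc, Usp17ld and Usp17le, 1 each.

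Usp9y, the Y-linked relative of Usp9x, was marked in both 2-cell libraries (14.0 and 9.65). Its 2 regions lie 76948 bp and 77820 bp from the gene's 3′ end, inside a gene of 160822 bp. Usp26, an X-linked gene known from testis, was marked in GV oocyte replicate 2 (6.30). Both of its peaks overlap the noncoding gene Gm35727, so their reads can come from either. Usp50 had no peak.

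Usp29, an imprinted gene expressed from the paternal copy that neighbours Peg3, was marked in 10 libraries and in neither blastocyst. Its fold enrichments were 3.39 to 8.90 in the maternal libraries (median 7.14), 10.5 and 13.1 in 2-cell embryos, and 7.12 and 7.61 in 8-cell embryos. The place of its marks differed between stages, as given below, with 1 place shared by GV oocytes and embryos.

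Of the 8 less characterised genes, Usp31, Usp38 and Usp53 were marked in all 12 libraries and Usp24, Usp43 and Usp54 in 11. All MII oocyte and 2-cell marks of Usp54 lie in regions that overlap the noncoding gene 1810062O18Rik, so their reads can come from either. Usp38 had fold enrichments of 2.45 to 5.29 in the maternal (median 3.03) and 2.86 to 14.9 in the embryonic libraries (median 7.22). Usp31 ran from 5.39 to 6.66 (median 6.00) and from 4.18 to 14.5 (median 7.55), and Usp53 from 4.56 to 8.00 (median 5.30) and from 4.46 to 13.8 (median 8.14). The ranges of all 3 overlap between the phases. Usp35 and Usp40 had no peak.

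Whole genes can hide a change of place, so overlapping peaks of the 12 libraries were merged into regions within each gene. The 50 marked USP genes had 124 regions, with a median of 2 per gene as over all marked genes, and 44% had 3 or more against 32.7%. Of the 124 regions, 12 were present in all 12 libraries (9.68%, against 3.06% of 23396 regions in all genes). They lie in the 11 genes marked throughout, with 2 in Usp1. Of these 12, 1 lies within 2000 bp of a gene end, against 39.6% of the constant regions of all genes. The constant region of Usp53 lies just outside this limit, at 2007 bp. The contrast is not matched for gene length, which sets how much of a gene lies near an end. The median length was 48000 bp for USP genes and 28665 bp for all marked genes. The table gives no exons, so whether these inner regions are exonic is not known. In Usp34 the constant region lies 126075 bp from the 3′ end (chr11:23363774-23364485), in Usp10 15294 bp (chr8:119941011-119942266) and in Usp8 16807 bp (chr2:126742020-126742507).

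Regions were tested between phases in the same way as genes, over 3660 regions of all genes. Of 22 USP regions tested, 6 were called maternal and 1 embryonic. Over all regions, 31.7% were called maternal and 17.6% embryonic. The maternal ones were 2 in Usp51 and 1 each in Usp2, Usp30, Usp27x and Usp29, and the embryonic one was in Usp48. Of these 7 regions, 6 lie within 2000 bp of a gene end, against 41.2% of the called regions of all genes. In Usp27x (3240 bp long) every position is that near to an end, and in Usp51 (4896 bp) most are, so gene length fixes much of this count. When p-values were adjusted over all regions rather than those in 5 to 7 libraries, 0 USP regions were called in either direction, which takes in the calls for Usp29, Usp51 and Usp27x below.

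Usp29 showed the change of place. Its region at chr7:6766216-6766804, 35657 bp from the 5′ end, was present in all 6 maternal and 0 embryonic libraries (Fisher's exact test, Benjamini-Hochberg adjusted p = 0.0102). A second, 3188 bp from the 3′ end (chr7:6961356-6964032), was present in both libraries of GV oocytes, 2-cell and 8-cell embryos and in no MII oocyte, zygote or blastocyst library. The latter overlaps the noncoding gene Zim3 of the table, so its reads can come from either. In MII oocytes and zygotes the mark on Usp29 was therefore the inner region alone, and from the 2-cell stage on that region was not seen.

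In Usp51 the 2 regions (chrX:153007738-153008323 and chrX:153008870-153009461) were present in the same 6 libraries (Benjamini-Hochberg adjusted p = 0.0102 each, Fisher's exact test). In Usp27x the region 796 bp from the 3′ end (chrX:7373387-7374183) was present in 5 maternal and 0 embryonic libraries and was called (Fisher's exact test, Benjamini-Hochberg adjusted p = 0.0307), while the middle region, which 2-cell replicate 1 also has, was not (adjusted p = 0.145).

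**Figure D5:**
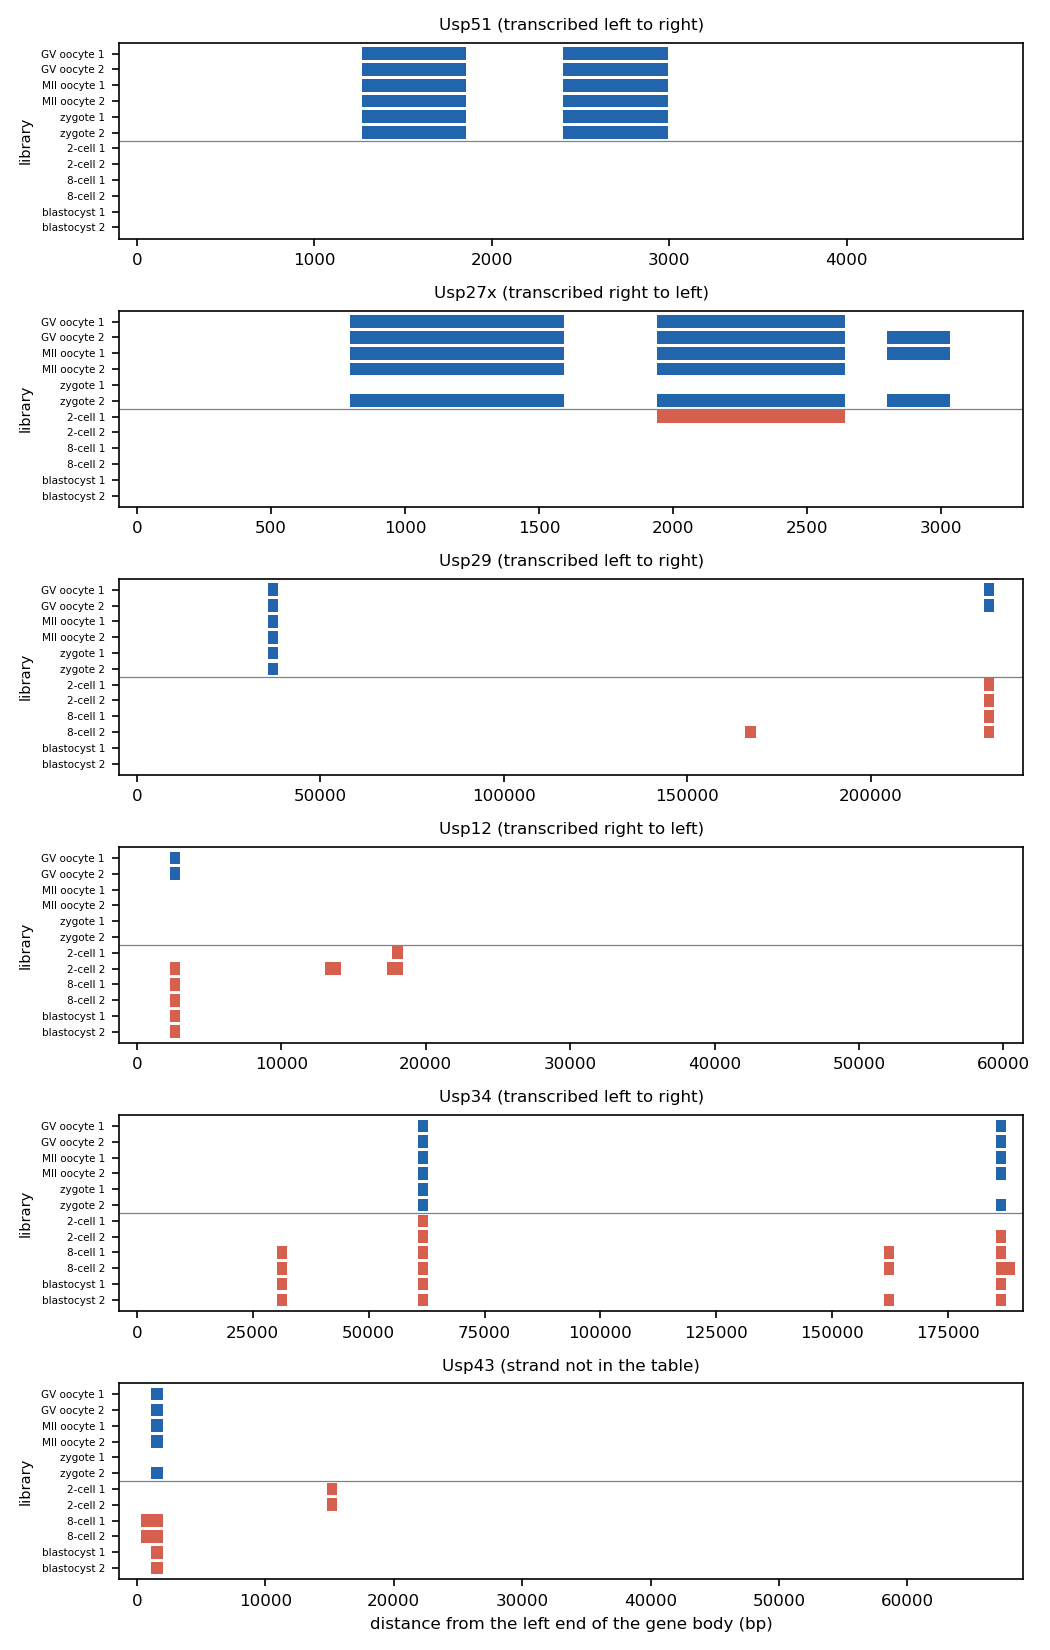
Maps of merged peak regions along 6 USP genes (horizontal axis, bp from the left end of the gene body; direction of transcription in each title) with 1 line per library (vertical axis; maternal in blue, embryonic in red). A bar shows the whole merged region where that library has a peak in it, and narrow regions are drawn wider than scale to stay visible. Usp29 is blue at the inner region and mostly red near its 3′ end, and Usp43 has 1 region present in both 2-cell libraries alone.

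Other genes changed region while staying marked. Usp43 was marked in 11 libraries, but both 2-cell libraries had their mark 14788 bp from a gene end (chr11:67869311-67869802), in a region that no other library has, and lacked the one 1115 bp from that end which 9 other libraries have. Usp12 was marked in 2-cell replicate 1 by a region 17683 bp from the 3′ end, which both 2-cell libraries share, and not by the region 2298 bp from the 3′ end that marks GV oocytes, 2-cell replicate 2 and the later embryos. Over the USP genes, 9 of 124 regions (7.26%) were present in both 2-cell libraries and in no other, against 374 of 23396 (1.60%) over all genes. These 9 lie in Usp9y, Usp12, Usp17lb, Usp17ld, Usp37, Usp43 and Usp44. Usp9y and Usp17lb each hold more than 1 of them, and the Usp17l copies can share reads, so the 9 are not independent.

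Some constant genes carried a further region only or mostly in the embryo, and others only or mostly in the maternal phase. Usp34 had a region 30198 bp from its 5′ end in both 8-cell and both blastocyst libraries and in 0 maternal ones, Usp1 a middle region in 4 embryonic and 0 maternal libraries, and Usp10 a region 29 bp from its 3′ end in 1 maternal and 5 embryonic libraries. None was called: the Usp10 region had a Benjamini-Hochberg adjusted p of 0.145 in Fisher's exact test, and the Usp34 and Usp1 regions, in 4 libraries each, were outside the tested range. In the other direction, Usp42 had a further region in 3 maternal and 0 embryonic libraries, and Usp31 one in 2 and 0. These were also outside the tested range. Further regions of constant genes were not counted over all genes, so no trend is drawn from these examples.

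Between consecutive stages, a USP gene is counted as gained when both libraries of the later stage and neither of the earlier are marked, and as lost in the reverse case. 2 libraries against 2 allow no p below the threshold, so these counts are a description. From GV to MII oocyte, 0 USP genes were gained (3.33% of all 9903 marked genes were) and 3 were lost, Usp12, Usp39 and Usp49, which is 6% of 50 (all genes 8.74%). From MII oocyte to zygote 0 were gained and 0 lost (all genes 0.666% and 2.53%).

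The zygote to 2-cell step had the most. Gained there were 8 USP genes, 16% of 50 against 9.88% of all marked genes: Usp12, Usp48, Usp20, Usp44, Usp9y, Usp17lb, Usp17lc and Usp17ld. Reads of the Usp17l copies among them can be assigned to one another, so these copies are not independent counts. Lost were Usp2, Usp30 and Usp51 (6%, all genes 7.94%). From 2-cell to 8-cell, 2 were gained, Usp33 and Usp39 (4%, all genes 10.9%), and 4 were lost, Usp17ld, Usp20, Usp44 and Usp9y (8%, all genes 5.66%). From 8-cell to blastocyst, 1 was gained, Usp46 (2%, all genes 4.79%), and 3 were lost, Usp17lb, Usp29 and Usp37 (6%, all genes 4.29%). The 4 genes that were marked in both 2-cell libraries and in no other library are 7.14% of USP genes, against 0.589% of all protein-coding genes. Usp20 is counted among them, and in the gains and losses, though its 2-cell libraries shared no region.

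Other deubiquitinase families and the enzymes around them gave few calls. Of 15 OTU family genes 10 were marked, 4 in all libraries, and 0 were called among 1 tested. Otud7b was marked in 6 maternal and 2 embryonic libraries, Otud3 in 6 and 4, and Otud6b in 4 and 6. Of 13 genes of the UCH, Josephin and MINDY families 7 were marked and 0 of 2 tested were called. There, Zup1 was marked in 6 and 4 libraries, and Atxn3 and Mindy3 in 0 and 2 each. Of 11 genes of the JAMM metalloprotease family 7 were marked and 0 of 2 tested were called, with Psmd7 at 2 and 5, Brcc3 at 5 and 2 and Eif3h at 0 and 3. No gene of these 3 families had an unadjusted p at or under 0.05 in Fisher's exact test.

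Cyld and Pan2, which have a USP fold but no USP symbol, had no peak, and Uspl1 was marked in 2 maternal and all 6 embryonic libraries. Of 7 SUMO proteases 6 were marked, and Senp8, which acts on the ubiquitin-like protein NEDD8, was called maternal (6 and 1 libraries). Senp7 was marked in 6 and 2 and Senp3 in 0 and 4, and neither could be tested. Of 13 ubiquitin precursor and E1 genes 7 were marked, and Sae1, a subunit of the SUMO E1, was called embryonic (0 and 5 libraries). Senp8 and Sae1 each had a Benjamini-Hochberg adjusted p of 0.0306 in Fisher's exact test. Of the 12 partner genes 11 were marked. Of 4 tested, 1 was called maternal (Eny2) and 2 embryonic (Atxn7l3 and G3bp1), where 28% and 21.6% of all genes tested were.

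Single libraries decided several calls. Without zygote replicate 1, Usp13 and Usp27x were also called maternal, and without 2-cell replicate 1, Usp27x and Usp7 were. Usp7 was also called maternal without GV oocyte replicate 2, and Usp13 without 2-cell replicate 2. Usp12 was called embryonic when any one GV oocyte library was left out, Usp33 when any one 2-cell library was, and Usp17lb when any one blastocyst library was. Usp5 was called embryonic without 2-cell replicate 2 and without 8-cell replicate 1. With both 2-cell libraries left out, Usp2 and Usp51 were called maternal and Usp33 embryonic, and Usp30 and Usp48 were not called. Usp51 was called in all 21 alternatives in which a value for it was computed.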

How the data were processed

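Peak lists of 12 immunoprecipitated libraries (6 stages, 2 each) were analysed; the 12 input libraries were not analysed here. Per the submitters' processing notes, the build was mm10 and the tools were HISAT2 2.1.0, MACS2 2.1.2, cutadapt 1.8.1, FastQC 0.11.8, bedtools 2.28.0, SAMtools 1.9 and deepTools 3.2.0, with no settings stated. In the deposited lists the authors give for each summit a score, a fold enrichment (a ratio), a −log10 p-value and a −log10 q-value, called per library. The lowest −log10 q-value is near 1.30 in each list. Depth is unknown, and strand use is not given in the sources used here.

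Where several summits had the same interval, the one with the best q-value was kept (143579 summits, 113764 peaks). Genes came from a RefSeq table of GRCm38.p6, the assembly behind mm10, without strand or exons; strand was taken from RefSeq promoter windows for 43 of 56 USP genes. Marked genes, at an overlap of at least 1 bp, were compared by Fisher's exact test with Benjamini-Hochberg adjustment at 0.05 in Python 3.11.15 with scipy 1.17.1, numpy 2.4.6 and pandas 2.3.3; the script was tested on simulated marks. Of USP peaks, 19 of 567 touch another protein-coding gene. The percentile of a peak is its rank by q-value within its library. Replicate numbers did not pair the libraries: over 15 pairs of stages, the correlation of replicate differences was −0.165 to 0.0249.

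Every USP gene is accounted for. Values are given for genes called, marked in all or none of the libraries, or gained or lost at a step; other USP genes, and partners beyond 3 per list, were named after their values were seen. Per other list, up to 3 genes with the largest difference between phases were named; some genes of these lists are not reported here. Members and lists were chosen with earlier results of these data known. The region test, and leaving out both 2-cell libraries, were added after the data were seen.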

Additional observations from a re-analysis of the deposited data

Results flagged for a closer look

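The fold enrichment of the best peak was checked for single libraries that stand apart in 28 groups of 6 libraries (a USP gene in a phase), with Dixon's test. It marked 2, and chance marks about 1 in 20 groups. For Usp42 in the maternal phase, MII oocyte replicate 1 had 16.9, with the next value at 9.55 and the lowest at 6.63. For Usp30 in the maternal phase, GV oocyte replicate 1 had 3.32, with the next value at 4.20 and the highest at 4.69. No cause was tested for either.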

How the results depend on the processing

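No alternative reversed a result. The gene body stands in for the transcript, since the annotation used here holds no exons, and a repeat with exon overlap was not run. Depth is unknown and limits what a missing peak means. The replicate block (exact test stratified by replicate number) gave 3 USP genes called maternal and 1 embryonic, as without it, and changed no call of a USP gene.

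With −log10 q-values of at least 10, 312 genes were called embryonic, USP calls were 5 maternal and 0 embryonic, 10 USP genes were marked in no library, the mean share marked was 44.8% and 0 USP regions were called embryonic; Usp48 had an adjusted p of 0.337 (Fisher's exact test, Benjamini-Hochberg). With every list shortened to the length of the shortest, USP calls were 5 and 2, 10 were marked in no library, the share was 43.9% and 2 regions were called embryonic. With the stronger peaks of each library (fold at or above its median), 344 and 225 genes were called, 0 USP genes embryonic, 2 USP genes were marked in all and 15 in no library, the share was 31.5% and 0 regions were called embryonic. There the 3 USP genes called maternal were Usp13, Usp46 and Usp51, so Usp2 and Usp30 were replaced. Within 2000 bp of a gene end, 318 genes were called maternal, 0 USP genes embryonic, 1 USP gene was marked in all and 24 in no library, the share was 24.3% and 0 regions were called embryonic. Adjusted over all marked genes, 274 and 245 genes were called, 0 USP genes embryonic, and 0 USP regions in either direction. The cause was not tested where these alternatives moved a value.

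Leaving out each library in turn gave 675 to 909 genes called maternal and 501 to 815 embryonic, 3 to 5 and 1 to 3 USP genes, 6 to 8 and 1 to 5 USP regions, 11 to 15 USP genes marked in all and 6 to 8 in no library, 11 to 17 gained, 13 to 20 lost, and a share of 50.5% to 52.4%. The most gained and lost, 17 and 20, came without zygote replicate 2, when zygote replicate 1 alone stood for its stage.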
